A study of Mus musculus with 16 samples.

Results

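The cytosolic ribosome of mouse cells is built from ribosomal RNA and a fixed set of ribosomal proteins, most of them named Rpl for the large subunit and Rps for the small subunit. Each protein is needed in about 1 copy per ribosome, and the acidic stalk proteins Rplp1 and Rplp2 are the exception. Their transcripts are among the most abundant of the cell and begin with a run of pyrimidines, the 5′ terminal oligopyrimidine (TOP) tract, through which mTOR signalling controls their translation. In the spinal cord, motor neurons hold dense stacks of ribosomes on rough endoplasmic reticulum, the Nissl bodies.

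Ribosomal protein transcripts were taken as all array rows, control spots left out, whose gene name starts with Rpl, Rps or Rplp and a number, or is Rpsa, without the Rps6k kinases. The rule found 137 of 41174 probes, for 82 of 27962 gene names, with 49 names of the large subunit and 33 of the small subunit. One of the 82, Rps19bp1, names a protein that binds Rps19 and not a ribosomal protein. Names such as Rpl3l, Rpl7l1, Rpl22l1, Rpl36al and Rps27l are paralogues of the standard proteins. Of these 137 probes, 126 passed the filter on dim probes and were tested, and they covered 81 of the 82 genes. The gene left out was Rpl3l, a paralogue of Rpl3 known from skeletal muscle, whose probe was well above background on 4 of 16 arrays. Each gene is described by its brightest tested probe unless stated otherwise. Genes with a single probe numbered 41, and 41 had 2 to 4 probes.

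The arrays measured lumbar spinal cord of male mice of a B6SJL background that carry the human SOD1 transgene with the G93A mutation (SOD1G93A), the amyotrophic lateral sclerosis model, and of age-paired non-transgenic wild-type mice. Both genotypes were taken at 40 and 80 days, before overt symptoms, with 4 arrays in each of the 4 groups. Each array held Cy3-labelled RNA of a cord beside a Cy5-labelled pool of neonatal heart, kidney and liver RNA from both genotypes, so a level is the log2 ratio of cord to pool. The study used 5 animals per group and kept 4 arrays per group after quality control. The transgene is not limited to a single cell type, and the whole lumbar cord was used, so fewer cells of a type and less RNA per cell cannot be told apart. Dyes were not swapped. On single arrays the median Cy3 signal of the ribosomal protein spots was between 1456 and 2109 intensity units. Their median Cy5 signal, from the pool, was far higher, between 41018 and 54751 units. Each slide carried 1 array of every group and each group had its own position on the slides, so group and position cannot be told apart. The mouse Sod1 probes, which need not bind the human transcript, gave changes of -0.011 and 0.11 at 40 days (limma adjusted p = 0.998 for both) and do not test the genotype labels. All markers of astrocytes (8 of 8), oligodendrocytes (8 of 8) and neurons (9 of 9) were well above background on 16 arrays, as were 4 of 6 motor neuron markers. Markers of tissue around the cord varied widely between arrays. With the level of a list on an array taken as the median log2 deviation of its genes from their means over 16 arrays, that of the meningeal fibroblast list ranged from -1.05 to 0.89 among wild-type arrays at 40 days, and that of the skeletal muscle list from -0.61 to 2.49 among SOD1G93A arrays at that age.

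The start of some of these genes carried a sequence feature that the choice by name did not use. In the RefSeq promoter table (GRCm38.p6), 62 of the 82 genes had an entry. The letters CTTTC, the core of a pyrimidine run, stood on the transcribed strand between bases -20 and 29 around an annotated start (50 bases, the start itself counted as 0) in 21 of these 62 genes, or 33.9%. Among all 27025 genes of the table the share was 7.66%. For the reverse letters GAAAG the shares were 11.3% and 7.30%. The 30-base windows shown next belong to the transcripts on which the comparisons below turn, those with a limma p under 0.05 at 80 days or in the difference between the ages, where a match was found, with CTTTC in capitals.
Rpl4 (chr9:64173360-64173389, plus strand): agtgacaagtCTTTCcttttcctgtgggag
Rpl13a (chr7:45128717-45128746, minus strand): agacctcctcCTTTCccaggcggctgccga
Rpsa (chr9:120127778-120127807, plus strand): gccgcccgtcCTTTCgcgctacccggggac
Rps15a (chr7:118116139-118116168, minus strand): ggcccactctCTTTCtgccatcttccctcg
Rpl35a (chr16:33056474-33056503, plus strand): ttgccttcctCTTTCcgccatcttggcgcc
Rps27 (chr3:90213637-90213666, minus strand): aggatttccgCTTTCgctcctttccggcgg
Rpl10a (chr17:28328576-28328605, plus strand): gctctgccttCTTTCcggtttccgcggcag
In the order shown, the letters began at base -17, 9, 22, -11, 2, -8 and 21. A match therefore need not lie at the 5′ end of the transcript, where a TOP tract stands. The first 4 genes had higher values in SOD1G93A mice at 80 days and the last 3 had lower ones, so the letters were found on both sides. Rpl36a, Rpl37, Rpl39, Rpl41, Rps25 and Rpl22l1 held no CTTTC in this window.

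At both ages and in both genotypes most ribosomal protein transcripts were lower in cord than in the neonatal pool. In wild-type cord at 40 days the median log2 ratio of the 81 genes was -1.28, the quartiles were -1.61 and -0.88, and 78 of 81 were below 0. Over all 21953 probes tested the median was 0.074. At 80 days the median of the ribosomal protein genes was -1.14 in wild-type and -1.22 in SOD1G93A cord, against -1.32 in SOD1G93A cord at 40 days. These ratios compare dyes as well as tissues, since dyes were not swapped. Probes of 1 gene could differ much in this ratio. The brightest probe of Rps15a, a small-subunit protein of the decoding side, had a mean of -1.91 in wild-type cord at 40 days, and its second probe had 1.73.

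At 40 days no ribosomal protein transcript passed the test between SOD1G93A and wild-type cord (0 of 81 genes at limma p under 0.05, unadjusted). Over all genes 3.89% of 14846 passed. The median change of the 81 genes was -0.022 on the log2 scale, SOD1G93A minus wild-type, beside -0.0021 over all genes, with 56 genes lower and 25 higher. The lowest was Rps27a, which encodes a fusion of ubiquitin and a small-subunit protein, at -0.19 ± 0.093 (SE; limma p = 0.0720, exact permutation p = 0.114). Next came Rps15a at -0.16, Rpsa at -0.16, Rps18 at -0.15 and Rpl18 at -0.14. The highest were Rpl8 at 0.073, Rpl7l1 at 0.057, Rps3a at 0.049, Rps19 at 0.046 and Rpl38 at 0.036. Second tested probes went the other way for Rpl7l1 at -0.051, Rps3a at -0.025, Rps19 at -0.084 and Rps15a at 0.0039. Rps19 read -2.28 on wild-type replicate 4, against -1.53 to -1.43 on the other wild-type arrays. Rpl7l1 read -0.71 on SOD1G93A replicate 2, against -0.87 to -0.85 on the other SOD1G93A arrays. The groups did not overlap in 1 gene, Rpsa, which encodes a small-subunit protein also known as the laminin receptor. Its second tested probe went the other way, at 0.089. Over all genes 1.42% were lower without overlap. Neither the median nor the count was stable here. The median was 0.0098, 0.0090 and 0.0052 without wild-type replicate 2, wild-type replicate 3 and SOD1G93A replicate 1. The count was 6 without wild-type replicate 4, 4 without SOD1G93A replicate 4, 2 without wild-type replicate 1, 1 without wild-type replicate 3 or SOD1G93A replicate 2, and 7 with no normalization within arrays, each time with all called genes lower in SOD1G93A cord. With slides as a block it was 1, Rpsa. Of cell type markers at this age, 4 of 8 astrocyte markers (Gfap, S100b, Slc1a2 and Slc1a3) and 3 of 8 oligodendrocyte markers were called higher in SOD1G93A cord, with list medians of 0.19 and 0.16. The level of the astrocyte list lay between 0.014 and 0.21 on SOD1G93A arrays and between -0.12 and -0.042 on wild-type arrays, and their part in the ribosomal protein values was not tested.

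At 80 days 11 of 81 ribosomal protein transcripts passed the test, 10 lower in SOD1G93A cord and 1 higher. That is 13.6%, beside 6.47% of 15068 genes over the array (3.32% lower and 3.15% higher). The median change of the 81 genes was -0.088, beside -0.0039 over all genes, and 62 of 81 genes were lower in SOD1G93A cord. By subunit the median was -0.098 over 45 large-subunit genes, with 7 lower and 1 higher call. It was -0.076 over 33 small-subunit genes with 3 lower calls, and the 3 stalk genes Rplp0, Rplp1 and Rplp2 had a median of -0.10 with no call. After Benjamini-Hochberg adjustment over all probes 0 ribosomal protein transcripts and 0 of 15068 genes passed in limma, where 975 genes had an unadjusted p under 0.05.

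**Figure D1:**
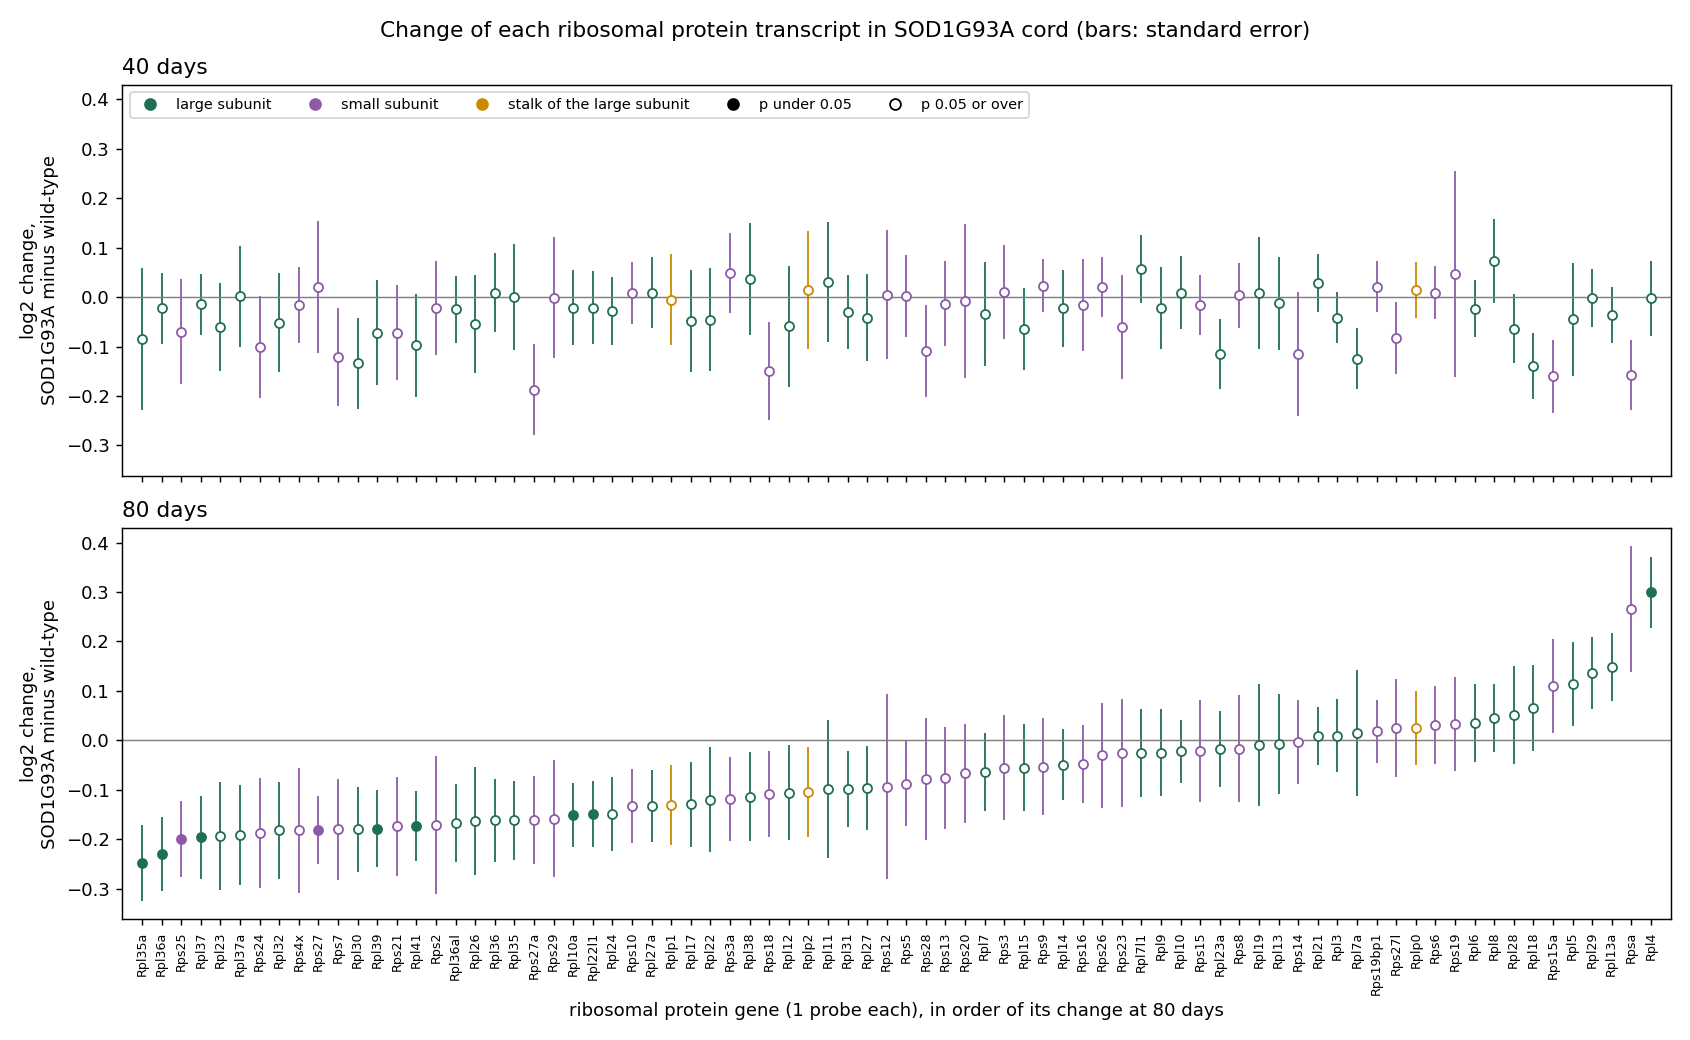
Change of 78 of the 81 ribosomal protein genes between SOD1G93A and wild-type cord at 40 days (top) and 80 days (bottom), on the log2 scale with its standard error, 4 arrays per group. Genes are ordered by their change at 80 days, colours give the subunit and filled points have a limma p under 0.05, which holds for none at 40 days and for 9 of the lower genes shown and Rpl4 at 80 days.

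Rpl35a, a large-subunit protein altered in some families with Diamond-Blackfan anaemia, read -0.79, -0.96, -0.87 and -1.002 in wild-type and -1.10, -1.30, -1.19 and -1.03 in SOD1G93A cord at 80 days. The groups lay apart, by a narrow gap. Its change was -0.25 ± 0.077 (SE), or -15.8%, with limma p = 0.00866, adjusted p = 0.668 and exact permutation p = 0.0286, the smallest that 4 arrays against 4 can give. At 40 days the same probe had a change of -0.085. The probe is on chromosome 16, and its ends, 32732018 and 32733213, lie further apart than its 60 bases, so it crosses an intron. A second tested probe gave -0.13 (limma p = 0.0570, exact permutation p = 0.0571).

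Rpl36a, a large-subunit protein near the exit site of transfer RNA, was measured by 3 probes on the X chromosome. They gave changes of -0.23, -0.20 and -0.29 at 80 days with limma p = 0.0122, 0.0433 and 0.00305 and exact permutation p = 0.0286, 0.0857 and 0.0286. The brightest read -0.49, -0.41, -0.33 and -0.39 in wild-type and -0.57, -0.80, -0.67 and -0.50 in SOD1G93A cord. All SOD1G93A arrays lay below the wild-type arrays, the closest pair by a small margin. At 40 days the 3 probes had changes between -0.11 and -0.016. Its paralogue Rpl36al, which encodes a nearly identical protein, had -0.17 (limma p = 0.0602, exact permutation p = 0.114).

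Further calls toward lower levels came from Rps25, known for its part in initiation at viral entry sites, at -0.20, from Rpl37 at -0.20 and from the zinc-finger protein Rps27 at -0.18. Rpl39, which lines the exit tunnel, had -0.18 and Rpl41, the smallest protein of the ribosome, -0.17. Rpl10a of the L1 stalk had -0.15 and Rpl22l1, the paralogue of Rpl22, -0.15. Their limma p ranged from 0.0256 to 0.0495 and their exact permutation p from 0.0286 to 0.114. The groups did not overlap in Rps27 and Rpl10a and overlapped in the other 5. In all, 5 of 81 genes, Rpl35a and Rpl36a among them, had no overlap on the lower side, beside 2.43% over all genes. On the higher side there was 1, Rpl4, beside 1.77%. With slides as a block Rpl37, Rpl39, Rpl10a and Rpl22l1 lost their call (limma p = 0.0503, 0.0520, 0.0577 and 0.0607, while the exact permutation p takes no account of slides), and Rpl30, Rpl36al, Rpl37a and Rpsa gained one, so that 7 of the 11 genes were called in both fits.

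Of genes listed as a ribosome pathway by the study, chosen on these samples and so no independent evidence, Rpl36a, Rps27, Rpl41, Rpl22l1 and Rps25 passed here. Rpl37a had -0.19, Rpl32 -0.18 and Rpl35 -0.16 (limma p = 0.0856, 0.0928 and 0.0692, exact permutation p = 0.171, 0.143 and 0.114). Rps19 had 0.033 by its brightest probe and -0.15 by another (limma p = 0.739 and 0.0771, exact permutation p = 0.714 and 0.200). Of standard proteins and paralogues, Rpl22 had -0.12 by its brightest probe and 0.12 by another, beside -0.15 for Rpl22l1. Rps27 had -0.18 beside 0.025 for Rps27l. Rpl3, Rpl10, Rpl7 and Rpl7l1 had changes between -0.064 and 0.0098 without a call. Among the 36 genes with several tested probes, the probes differed in sign in 14 at 80 days and in 23 at 40 days.

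The single transcript that rose at 80 days was Rpl4, a large-subunit protein that reaches into the exit tunnel. Its probe lies on chromosome 9 from 64203185 to 64203244. Wild-type arrays read -0.90, -0.95, -0.73 and -0.94, and SOD1G93A arrays -0.63, -0.61, -0.45 and -0.63. All SOD1G93A arrays were above all wild-type arrays. The change was 0.30 ± 0.072 (SE), or 23.1%, with limma p = 0.00182, adjusted p = 0.654 and exact permutation p = 0.0286. At 40 days the change was -0.0024. Next in order were Rpsa at 0.27 (limma p = 0.0645, exact permutation p = 0.114), Rpl13a, also known from the GAIT complex that silences inflammatory transcripts, at 0.15 (limma p = 0.0549, exact permutation p = 0.0571), Rpl29 at 0.14 and Rpl5, which carries 5S ribosomal RNA, at 0.11. Rpsa was spread from -0.97 to -0.34 among SOD1G93A arrays, where replicate 3 stood highest, and its second probe had -0.0066.

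**Figure D2:**
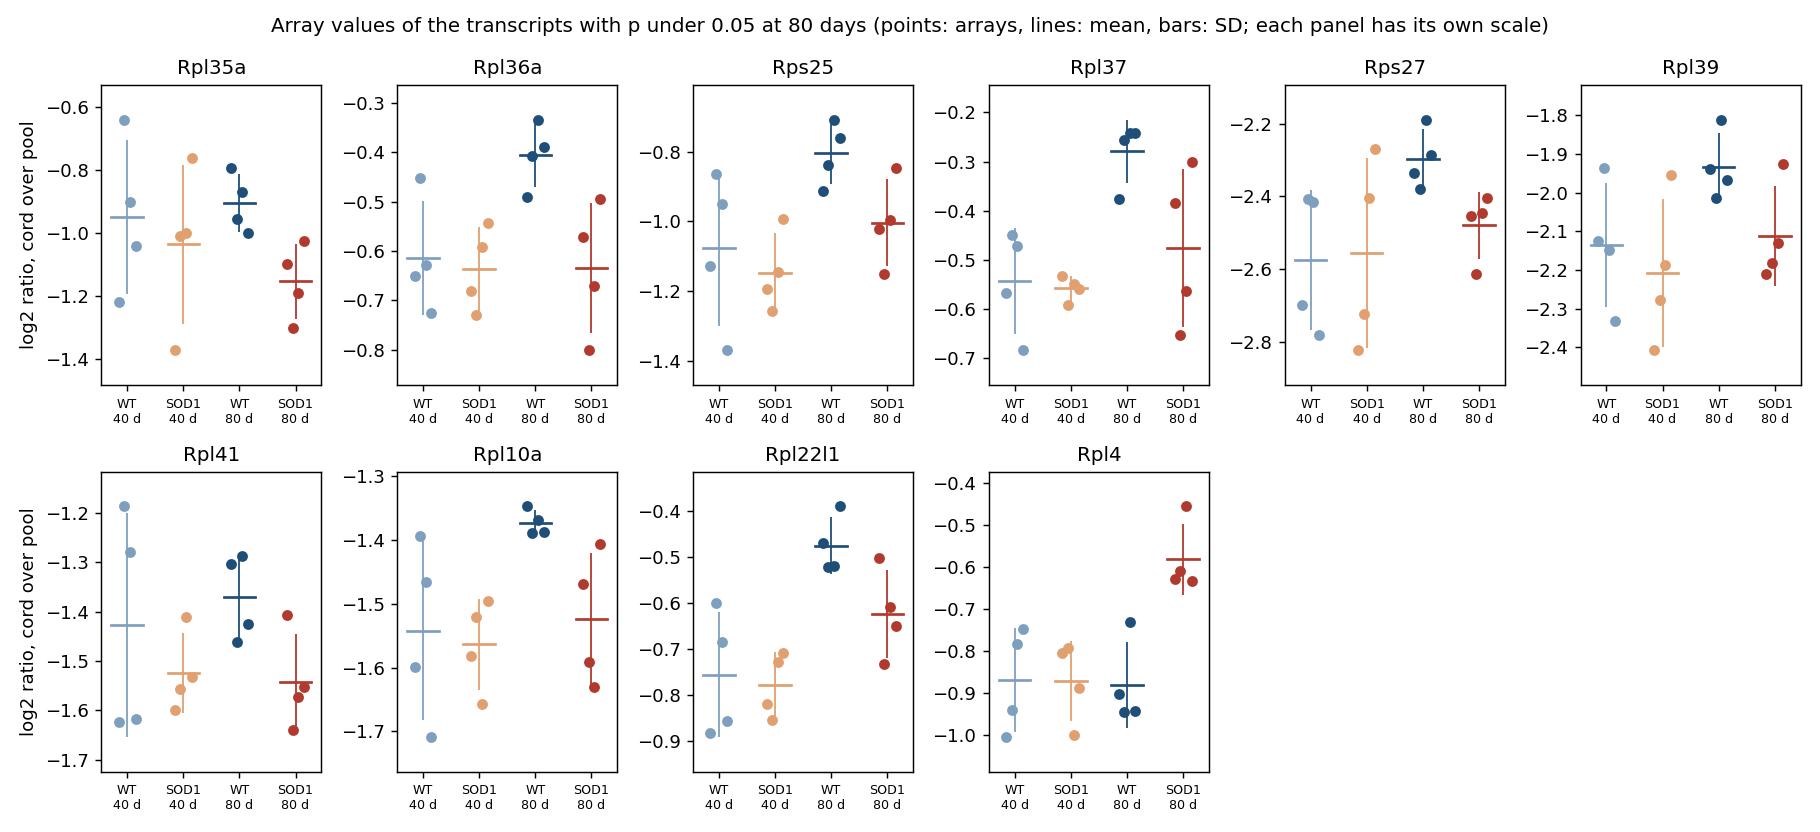
Log2 ratio of cord over pool on each of the 16 arrays for 10 of the 11 transcripts with limma p under 0.05 at 80 days, with group means and SD (n = 4). At 80 days SOD1G93A arrays lie below all wild-type arrays in Rpl35a, Rpl36a, Rps27 and Rpl10a and above them in Rpl4, while the remaining 5 overlap.

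The count at 80 days depended on single arrays and on scaling. It was 21, of which 20 lower, without SOD1G93A replicate 4, and 6, 5 and 5 without SOD1G93A replicate 2, wild-type replicate 3 and wild-type replicate 4. With no normalization within arrays 5 genes passed, 4 higher and 1 lower, and with processed signals 4, 1 higher and 3 lower. Bright probes of other genes were also often called. Among probes with a mean log2 signal of both channels of 13 or more, 14.1% of 78 ribosomal protein probes and 12.8% of 454 others passed, with medians of -0.097 and -0.024. Of cell type markers at this age, 1 of 8 for astrocytes (Slc1a2), 1 of 9 for neurons (Syt1) and 1 of 7 for meningeal fibroblasts (Ptgds) were called lower in SOD1G93A cord and 1 of 8 for oligodendrocytes (Mog) higher, beside the 6.47% over all genes. The medians of these lists were -0.074, -0.058, -0.17 and 0.039, and that of skeletal muscle markers was 0.46 without a call. The 5 motor neuron markers tested had a median of 0.11, also without a call. The level of the astrocyte list was between -0.19 and 0.017 on SOD1G93A arrays and between -0.090 and 0.12 on wild-type arrays at 80 days, and the part of these markers in the result was not tested.

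The changes at 80 days were ordered along the numbers in the gene names of the large subunit. Ribosomal proteins were numbered by their place on protein gels, so that higher numbers stand broadly for smaller proteins. Of the 13 genes from Rpl30 to Rpl41 all were lower in SOD1G93A cord, between -0.25 and -0.098 with a median of -0.18 and 5 calls. Of the 15 genes from Rpl17 to Rpl29, 11 were lower, with a median of -0.096. Of the 17 from Rpl3 to Rpl15, 10 were lower and 7 higher, with a median of -0.022. Across the 45 large-subunit genes the rank correlation of number and change was -0.69. It was -0.092 across 31 small-subunit genes. These are descriptions: the ranges of numbers were set after the values were seen, and the genes share arrays and are not independent. At 40 days the same rank correlation was -0.096 for the large and -0.30 for the small subunit. For the large subunit at 80 days it stayed between -0.72 and -0.62 under 22 other settings, single arrays left out included, and was -0.72 with the median over the probes of a gene. Across these 45 genes the number had a rank correlation of 0.024 with probe GC content. It was -0.035 with mean signal and -0.032 with the ratio of cord to pool. The change at 80 days had rank correlations of 0.21, -0.040 and 0.075 with these properties, in the same order. Over all 21603 probes tested, the change at 80 days had a rank correlation of 0.16 with probe GC content. Protein length and probe position within the transcript were not computed, and their part in this order was not tested.

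**Figure D3:**
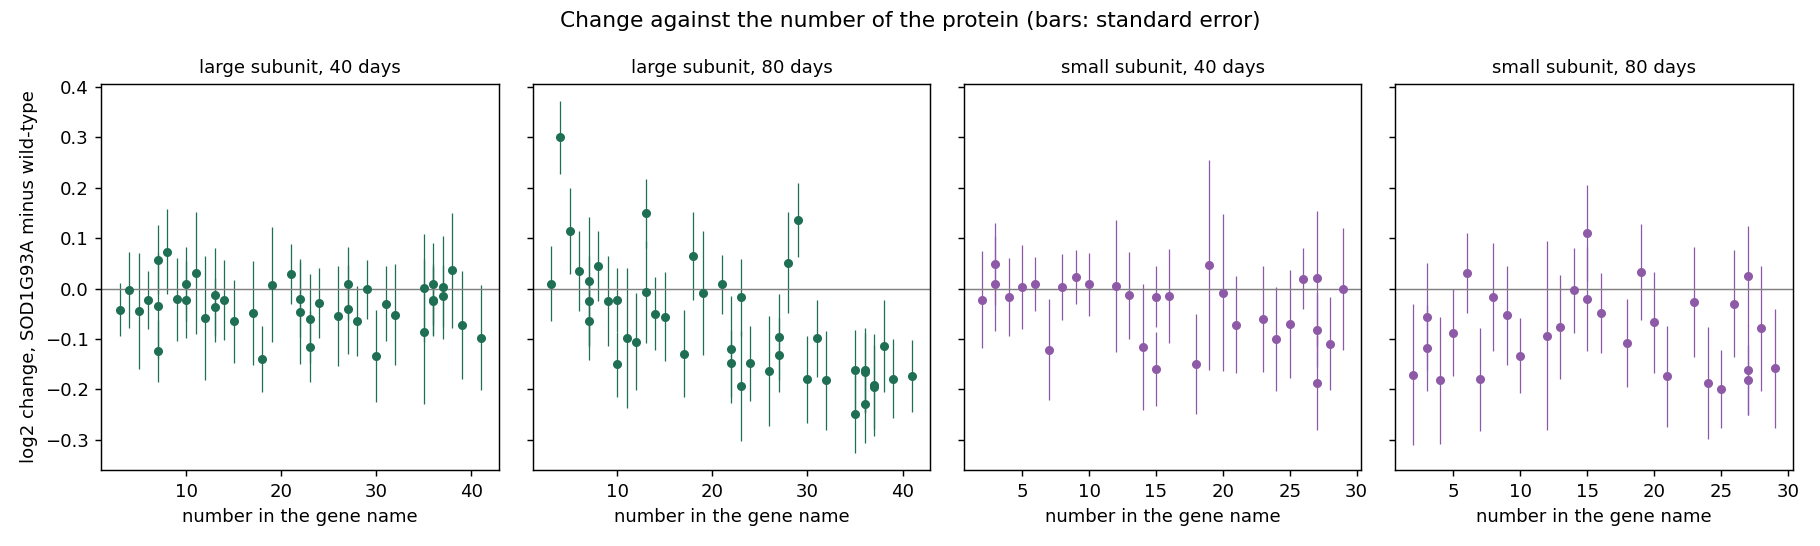
Log2 change between SOD1G93A and wild-type cord against the number in the gene name, with standard errors, for 44 large-subunit and 29 small-subunit genes at 40 and 80 days. In the large subunit at 80 days the points run down from Rpl4 at 0.30 to values between -0.25 and -0.098 for numbers of 30 and over, and the rank correlations behind the other panels, over all 45 and 31 genes, lie between -0.30 and -0.092.

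On single arrays the order can be shown as the median level of Rpl3 to Rpl15 minus that of Rpl30 to Rpl41, which compares transcripts within an array. Since these ranges of numbers were set from the changes at 80 days on the same arrays, a gap between the genotypes at that age is part of the choice. High values of the SOD1G93A arrays at 80 days beside the 40-day arrays are favoured by it too. Both are given as a description alone. The 4 SOD1G93A arrays at 80 days read 0.071, 0.11, 0.11 and 0.091. Wild-type arrays at 80 days read -0.11, -0.089, -0.047 and -0.075. The 8 arrays at 40 days read from -0.10 to -0.0058 in wild-type and from -0.037 to 0.028 in SOD1G93A cord. The SOD1G93A arrays at 80 days were above all other 12, and wild-type arrays at 80 days overlapped those at 40 days. The median deviation of all 81 genes did not separate the groups, with ranges of 0.025 to 0.20 in wild-type and -0.12 to 0.16 in SOD1G93A cord at 80 days.

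**Figure D4:**
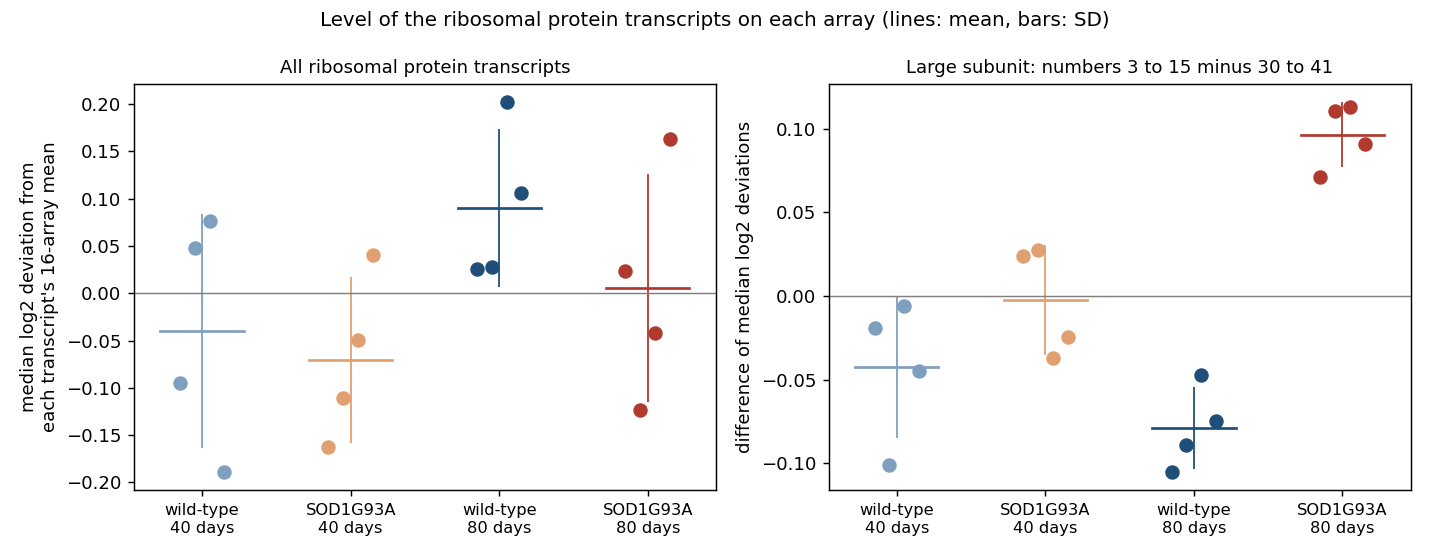
Left, median log2 deviation of the 81 ribosomal protein transcripts from their means over 16 arrays, 1 point per array; right, the same level of large-subunit genes numbered 3 to 15 minus that of genes numbered 30 to 41. Lines are means and bars SD (n = 4): the groups overlap on the left, while on the right SOD1G93A arrays at 80 days (0.071 to 0.11) lie above all others. The ranges of numbers were set from the changes at 80 days on these arrays, so the right panel is a description alone.

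The difference of the genotype change between the ages was tested on all 16 arrays. It passed in 5 of 81 genes, 4 higher and 1 lower, or 6.17% beside 5.80% of 15231 genes (2.74% higher and 3.07% lower), and after adjustment in 0 (limma), where 884 genes had an unadjusted p under 0.05. The median was -0.058, beside 0.0026 over all genes, with 57 of 81 below 0. With 1 array left out the median ran from -0.10 without replicate 4 of SOD1G93A at 80 days to -0.0048 without replicate 4 of SOD1G93A at 40 days, and it was -0.0076 and -0.0078 without replicate 4 of wild-type at 40 days and replicate 3 of wild-type at 80 days. Rpsa had the largest difference at 0.42 ± 0.16 (SE; limma p = 0.0150, exact permutation p = 0.0151) by its brightest probe, while its second tested probe had -0.096 (limma p = 0.420, exact permutation p = 0.414). Rpl4 had 0.30 ± 0.10 (SE; limma p = 0.0101, exact permutation p = 0.0376). The exact permutation tests of this comparison moved genotype labels within each age, which assumes no genotype change at either age. Rps15a had 0.27 and Rpl13a 0.19 (limma p = 0.0441 and 0.0454, exact permutation p = 0.0449 and 0.0392), and the call of Rpl13a was lost with slides as a block (limma p = 0.0585). On the other side were Rpl36a at -0.21, Rps27 at -0.20, Rpl37a at -0.19 and Rpl37 at -0.18, and Rpl18 had 0.20, none with a call. The calls of Rpl4 and of the brightest Rpsa probe held without each of the 16 arrays in turn, and those of Rps15a and Rpl13a were each lost without 10 of them. The count was 3 without replicate 1 or 3 of wild-type at 40 days, replicate 1 of SOD1G93A at 40 days, replicate 2 or 4 of wild-type at 80 days or replicate 1 of SOD1G93A at 80 days, and 2 without replicate 3 of SOD1G93A at 40 days. All 13 genes from Rpl30 to Rpl41 were below 0, between -0.21 and -0.046. That range was set from the changes at 80 days, which are part of this difference, so these values are a description alone. Of astrocyte markers, 4 of 8 were called lower in this comparison (Gfap, S100b, Slc1a2 and Slc1a3), with a list median of -0.32. All 9 neuron markers were below 0, with a median of -0.16 and a call for Syt1. Of 5 motor neuron markers tested, 3 were above 0, with a median of 0.079 and Slc18a3 called higher. Of 8 oligodendrocyte markers, 1 (Cldn11) was called lower. The part of these markers in the differences of the ribosomal protein genes was not tested.

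With age most ribosomal protein transcripts had higher group means in wild-type cord. The level of the list on single arrays still overlapped between the ages. It ran from -0.19 to 0.076 at 40 days and from 0.025 to 0.20 at 80 days. Between 40 and 80 days 17 of 81 genes rose and 0 fell, or 21.0% beside 15.5% of 15025 genes over the array, of which 7.31% rose. The median change, 80 minus 40 days, was 0.12, beside 0.017 over all genes, and 75 of 81 genes were above 0. Rplp1, an acidic protein of the stalk that binds elongation factors, read -1.36, -1.23, -1.35 and -1.70 at 40 days and -1.21, -1.10, -0.89 and -0.92 at 80 days. All 80-day arrays were above all 40-day arrays. Its change was 0.38 ± 0.090 (SE; limma adjusted p = 0.0436, exact permutation p = 0.0286), the 1 ribosomal protein gene past adjustment here, beside 1.72% of all genes. Rpl26, at the exit tunnel, rose by 0.31, Rpl27a by 0.29, Rpl22l1 by 0.28, Rps27 by 0.28 and Rps2 by 0.28. Rps25 rose by 0.27, Rps15 and Rpl37 by 0.26, Rps21 by 0.26, Rps3a by 0.24 and Rpl23 by 0.22. Rpl36a rose by 0.21, Rpl10a by 0.17, Rpl10, which completes the peptidyl transferase site, by 0.16 and Rpl13a by 0.14. The lowest were Rps27l at -0.17, Rpl7a at -0.11, Rpsa at -0.065, Rpl18 at -0.045 and Rplp0 at -0.013, without a call. By its second tested probe Rpsa had 0.17. The groups did not overlap in 11 genes, all higher at 80 days, beside 3.33% over all genes.

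In SOD1G93A cord 12 of 81 genes rose between 40 and 80 days and 0 fell. That is 14.8%, below the 17.8% of 14939 genes over the array, of which 9.37% rose. The median change was 0.076, beside 0.011 over all genes, and 63 of 81 were above 0. On single SOD1G93A arrays the level of the list overlapped between the ages, at -0.16 to 0.040 and -0.12 to 0.16. With 1 array left out the median ran from 0.024, without replicate 4 at 80 days, to 0.13, without replicate 4 at 40 days, and it was 0.033 without replicate 1 at 40 days. Rpl13a read -1.41, -1.28, -1.32 and -1.25 at 40 days and -0.91, -1.11, -1.06 and -0.88 at 80 days. No 2 arrays of different age overlapped. Its change was 0.32 ± 0.061 (SE; limma adjusted p = 0.0121), the 1 ribosomal protein gene past adjustment, beside 1.39% of all genes. The groups did not overlap in 7 genes, all higher at 80 days, beside 6.85% over all genes. Rpsa rose by 0.36, Rpl5 by 0.32, Rpl4 by 0.29, Rps15a by 0.27, Rps15 by 0.26 and Rplp1 by 0.25. Rpl28 rose by 0.22, Rpl29 by 0.16, Rpl22l1 by 0.15 and Rpl3, whose loop reaches the peptidyl transferase centre, by 0.15. With slides as a block Rpl22l1 lost its call (limma p = 0.0626, exact permutation p without slides = 0.0857) and Rpl26 gained one. The lowest were Rpl35a at -0.12, Rpl36al at -0.083, Rps27l at -0.064, Rps10 at -0.061 and Rps13 at -0.059. By their second tested probes Rpl35a had 0.092 and Rps13 had 0.032. Of Rpl30 to Rpl41, 8 of 13 were above 0 with age in SOD1G93A cord and 13 of 13 in wild-type cord, with medians of 0.013 and 0.15. The age comparison of a genotype shares arrays with the genotype comparison of each age, so these values are not separate evidence.

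The age result in wild-type cord depended on scaling and on single arrays. With no normalization within arrays the wild-type median was 0.0021 with 4 calls, 2 higher and 2 lower. Without wild-type replicate 4 at 40 days 9 genes were called, and 11 without replicate 1 at 40 days and without replicate 3 at 80 days. Cell type markers changed with age as well. Of 8 astrocyte markers, 2 rose in wild-type cord (Aldh1l1 and Slc1a3, list median 0.14), and in SOD1G93A cord 1 rose (Aldh1l1) and 3 fell (Aqp4, S100b and Slc1a2, list median -0.19). Of 10 microglia markers, C1qb rose in both genotypes, with list medians of 0.22 and 0.33. At 80 days the level of this list was 0.60 on wild-type replicate 3 and between -0.13 and -0.017 on the other wild-type arrays. It was 0.92 on SOD1G93A replicate 4 and between -0.24 and 0.086 on the other SOD1G93A arrays. At 40 days it lay between -0.14 and -0.052 in wild-type and between -0.22 and -0.068 in SOD1G93A cord. Of 8 oligodendrocyte markers, 3 fell in wild-type and 4 in SOD1G93A cord, with list medians of -0.20 and -0.31. The level of the oligodendrocyte list was between -0.039 and 0.24 at 40 days and between -0.36 and 0.056 at 80 days on wild-type arrays, and between 0.11 and 0.36 and between -0.28 and -0.015 on SOD1G93A arrays. The part of these markers in the ribosomal protein levels was not tested.

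Other gene lists of translation gave a frame for these values. Mitochondrial ribosomal proteins, which serve the separate ribosome of mitochondria, had 7 of 75 genes lower and 0 higher at 80 days in SOD1G93A cord, with a median of -0.041. Mrps11 had the lowest value of these 7 at -0.24 (limma adjusted p = 0.654), and Mrpl12 had -0.21. At 40 days 0 of 75 passed. Of 58 translation factors 1 rose and 1 fell at 80 days, with a median of -0.012. Eef2, the elongation factor that moves the ribosome along its message, rose by 0.44 (limma adjusted p = 0.654) and Eif2s2, a subunit of the initiation factor that brings the first transfer RNA, had -0.15 (limma adjusted p = 0.708). Of 36 ribosome biogenesis genes 0 passed at 80 days, while at 40 days Ddx21, Nip7 and Sbds fell and Tcof1 rose. Over all genes 6.47% passed at 80 days and 3.89% at 40 days, with 0 after adjustment at either age. Among 11 regulators of TOR and of TOP messages Tsc1, an inhibitor of mTOR signalling, rose by 0.18 at 80 days (limma adjusted p = 0.708). Fau, made as a fusion with a ubiquitin-like part, had -0.10, and Gnb2l1 (Rack1), the scaffold protein of the small subunit, -0.046, without a call.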

How the data were processed

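The labels give the genotype and age of each cord sample. The authors read the 16 two-colour arrays with Agilent Feature Extraction 9.5.3.1, per the labels. The deposited spot values are linear intensity units that were not normalized. The authors' deposited series matrix holds normalized log2 values, which follow Cy3 alone and share quantiles within an age only, so it was not used between ages. Probe positions are on mm7, as in the files.

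limma 3.58.1 in R 4.3.3 (with statmod 1.5.0 and data.table) gave log2 ratios, Cy3 over Cy5, from median signals. A local background over 20 units above its spot's median signal was set to the median background of the channel. The steps after that were normexp (offset 50) and a loess fit on each array, with quantile scaling of mean intensity between arrays, which leaves ratios as they are. Control and outlier spots were left out and spots of a probe averaged. Tested probes had Cy3 well above background in 3 or more of the 4 arrays of either group, with 2 or more measured arrays per group. Genotypes were compared on 8 arrays within an age, other comparisons on 16, with lmFit and eBayes. Calls rest on two-sided p-values under 0.05 without adjustment, the threshold of the study, with Benjamini-Hochberg adjusted values over all probes beside them. Two-sided exact permutation tests of 4 arrays against 4 were run per gene for the genotype and age comparisons. For the difference between the ages, genotype labels were moved within each age (4900 relabellings, smallest possible exact permutation p 0.00041). These moves assume no genotype change at either age, so their p is not one for the difference alone. A change of a bright probe is read relative to the loess curve, to which these probes contribute: of 532 probes with a mean log2 signal of 13 or more, 14.7% are ribosomal. The fits were also run on simulated data with each probe drawn independently, where 4.90% to 5.03% of unchanged probes were called. Such data lack shifts that probes of an array share, so they do not test the counts of ribosomal protein calls. The precision is limited by 4 arrays per group, and p-values measure the spread between these arrays.

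Slides pair the arrays, since file headers place replicate 1 of every group on 1 slide and so on. Residuals of same-slide arrays of an age correlated between -0.066 and 0.20 over probes. Slides as a block are an alternative.

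Named genes are, for each of 5 comparisons, all member genes with p under 0.05, the 5 largest rises and 5 largest falls, the ribosome genes the study lists, and paralogue pairs. Members, lists and tests were chosen with earlier results of these data known. Values of some genes are not reported here, while counts, medians and rank correlations include them. Start-site sequences come from RefSeq promoters, matched by symbol, with Rps3a as Rps3a1. Of 137 probe accessions 115 matched a RefSeq transcript. Other tools were Python 3.11.15, pandas 2.3.3, numpy 2.4.6, scipy 1.17.1 and matplotlib 3.10.9.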

Additional observations from a re-analysis of the deposited data

Results flagged for a closer look

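For the difference of the genotype change between 80 and 40 days, the 6 probes given here had unadjusted limma p under 0.05. They come from 126 ribosomal protein probes tested. Over all genes, by their brightest probe, 5.80% of 15231 passed this test, and 0 passed after Benjamini-Hochberg adjustment. The log2 values were 0.42 for Rpsa, 0.30 for Rpl4, 0.30 for a dimmer probe of Rpl29, 0.27 for Rps15a and 0.19 for Rpl13a. A dimmer probe of Rpl24 had a lower value, at -0.24. Other tested probes gave -0.096 for Rpsa, 0.060 for Rps15a, -0.12 for Rpl24 and values down to -0.013 for Rpl29.

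A single array stood far from the other 3 of its group in 7 of 175 groups looked at, where chance gives about 1 in 20. In wild-type cord at 80 days this held for Rpl3 in replicate 2, at -0.11 against 0.066 to 0.074, and for Rpl37 in replicate 1, at -0.38 against -0.26 to -0.24. In SOD1G93A cord at 80 days it held for Rpl4 in replicate 3, at -0.45 against -0.63 to -0.61. In SOD1G93A cord at 40 days it held for Rpl7l1 in replicate 2 at -0.71, Rplp0 in replicate 2 at -1.61 and Rps15a in replicate 4 at -1.89. In wild-type cord at 40 days Rps19 in replicate 4 was at -2.28, against -1.53 to -1.43.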

How the results depend on the processing

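For the 81 ribosomal protein genes, the number called at 40 days, 0 at first, was 1 with no background subtraction, in the authors' series matrix, with outlier spots kept, with a trend in eBayes and with slides as a replicate block, 2 with no filter on dim probes, 3 with array weights and 7 with no normalization within arrays. It was 0 to 6 with each array left out. At 80 days the 11 calls became 21 with no background subtraction, 18 with the Cy3 channel alone, 19 with array weights, 5 with no normalization within arrays and 4 with processed signals, and 5 to 21 with each array left out. The block gave 11 at 80 days, of which 7 were called without it, 4 for the difference between the ages and 20 and 12 for age in wild-type and SOD1G93A cord, and so changed no other count by over 1.5 times. It ended 6 single calls. For the difference between the ages the 5 calls became 2 with processed signals, 3 with the Cy3 channel alone and 3 with the median over the probes of a gene, and 2 to 5 with each array left out. Its median turned to 0.078 with no normalization within arrays. For age in wild-type cord the 17 calls became 10 with processed signals and 4 with no normalization within arrays, where the median was 0.0021, and 9 to 23 with each array left out. For age in SOD1G93A cord they stayed between 8 and 17. The median change at 80 days stayed below 0, between -0.14 and -0.033. Of 45 single calls under all settings, 967 values in all, 204 lost their call and 0 turned their sign, and that of Rpl4 at 80 days was kept in every setting. The cause of these shifts was not tested. The authors' series matrix was not run between ages. Precision is limited by 4 arrays per group.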
